A study of Homo sapiens with 6 samples.

Results

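The regions described here are LSD1 peaks of NCI-H526 cells that lay on H3K4me1 without H3K4me2 and that were found again after an LSD1 inhibitor. The rule took each peak of the DMSO library that overlapped a GSK552 peak and an H3K4me1 interval, by 1 bp or more in both cases, and that shared no base with an H3K4me2 interval. Of the 45188 LSD1 peaks with DMSO, 2583 met the rule (5.72%, 95% Wilson interval 5.51 to 5.93%). They made up 9.05% of the 28538 peaks found again with GSK552, and 18.5% of those that were found again and lay on H3K4me1. Peaks found again are called retained below, and the members of the set are called H3K4me1-only peaks.

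NCI-H526 cells derive from a human small cell lung cancer, and the labels describe the line as epithelial and of multiple passages. Crosslinked chromatin was used for chromatin immunoprecipitation and sequencing (ChIP-seq). The GSK552 group held 1 LSD1 library from cells treated with GSK2879552, an LSD1 inhibitor, at 1 µM for 24 hours. The DMSO groups held 1 library each for LSD1, H3K4me1 and H3K4me2, from cells given the vehicle. Of the 6 samples, the other 2 were inputs and are not used here. All groups shared the same cell line and medium. With 1 library per group and no replicate, differences between the LSD1 lists compare libraries and carry no test. The files give no read depth, so intervals cover counting error over peaks only, and neighbouring peaks are not independent.

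LSD1, also named KDM1A, is a histone demethylase. It removes methyl groups from mono- and dimethylated lysine 4 of histone H3, in complexes with CoREST and histone deacetylases, and is brought to DNA by transcription factors. H3K4me1 is typical of enhancers, including enhancers that are primed but not active, while H3K4me2 is found at active enhancers and promoters. GSK2879552 binds covalently to the FAD cofactor of LSD1 and so blocks its catalytic activity. Small cell lung cancer is one of the settings in which LSD1 inhibitors have been tested. Positions below are on hg19. Genes are not named, since no annotation of that build was used here.

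The marks defined 4 kinds of DMSO peak, and the share found again differed between them. It was 58.1% for peaks with H3K4me1 only (2583 of 4447, interval 56.6 to 59.5%), against 79.4% for peaks with both marks, 77.5% for peaks with H3K4me2 only and 44.8% for peaks with neither. The share over all DMSO peaks was 63.2%. These shares come from the values that chose the peaks and are given as a description. The 1864 H3K4me1-only peaks that were not found again were weaker in the DMSO library, with a median −log10 q of 1.58, against 2.50 for the retained ones.

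The limits of the rule ran through closely spaced values. H3K4me1 covered under 50 bp of 182 of the 2583 peaks, while 178 retained peaks with neither mark lay within 50 bp of an H3K4me1 interval. The peak at chromosome 17, 7899207 to 7899373, was inside the rule with 1 bp of H3K4me1, and the peak at chromosome 20, 55987829 to 55988606, lay outside it at a distance of 2 bp from H3K4me1. For GSK552 the overlap was under 50 bp at 39 peaks, and 21 H3K4me1-only peaks lay within 50 bp of a GSK552 peak without touching it. The 3 smallest overlaps inside were 4, 5 and 5 bp, and the 3 nearest peaks outside lay 3, 3 and 6 bp away. H3K4me2 lay within 50 bp of 172 of the peaks, and 263 retained peaks with both marks had under 50 bp of H3K4me2. The peak at chromosome 6, 21946194 to 21946750, directly adjoined an H3K4me2 interval, and the peak at chromosome 12, 52607471 to 52608004, shared 1 bp with one and was left out.

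As LSD1 peaks, the H3K4me1-only peaks were narrower than retained peaks with both marks but ranked nearly as high in their lists. Rank here is the place of a peak in its own list by −log10 q, as a percent of the list, so that low values are strong. The median rank was 34.2% for the GSK552 peaks that overlapped them and 32.4% for the DMSO peaks themselves. For retained peaks with both marks the medians were 32.9% with GSK552 and 30.9% with DMSO, and for those with neither mark 37.2% with GSK552 and 37.9% with DMSO. Retained peaks with H3K4me2 only ranked lower, at 45.1% with GSK552 and 47.9% with DMSO. Fold enrichment over the caller's background, the authors' own value, had a median of 4.26 with GSK552 and 3.86 with DMSO at the H3K4me1-only peaks. Over all retained peaks the medians were 4.13 with GSK552 and 3.76 with DMSO. The median fold was higher with GSK552 in every class of retained peak, so this was not particular to the set.

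The set reached into the top of each LSD1 list about as often as retained peaks with both marks. The upper 10% of the GSK552 list held the overlapping peak of 504 H3K4me1-only peaks (19.5%), and the upper 10% of the DMSO list held 480 of them (18.6%). Both conditions were met by 259 peaks, at least one by 725, and 33 were in the upper 1% of both lists. No such joint counts are given here for the other classes, so these describe this set only. The share in the upper 10% was 18.9% with GSK552 and 19.9% with DMSO for retained peaks with both marks, 16.6% with GSK552 and 14.7% with DMSO for those with neither mark, and 8.97% with GSK552 and 6.56% with DMSO for those with H3K4me2 only. Over all retained peaks it was 16.0% with GSK552 and 15.3% with DMSO. Over the 2583 peaks, −log10 q with GSK552 and with DMSO had a Spearman correlation of 0.514, which describes loci seen in the same pair of libraries.

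In width the H3K4me1-only peaks lay between retained peaks with both marks and those with neither. Their median width was 399 bp for the overlapping GSK552 peaks and 468 bp with DMSO, with a middle 50% from 277 to 767 bp. The median with DMSO was 471 bp over all DMSO peaks and 340 bp for H3K4me1-only peaks that were not found again. Retained peaks with both marks were 713 bp wide with GSK552 and 787 bp with DMSO, those with H3K4me2 only 738 bp with GSK552 and 628 bp with DMSO, and those with neither mark 326 bp with GSK552 and 381 bp with DMSO. The GSK552 peak was thus 0.892 times as wide as the DMSO peak in the median, against 0.912 for both marks, 1.13 for H3K4me2 only and 0.913 for neither.

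**Figure D1:**
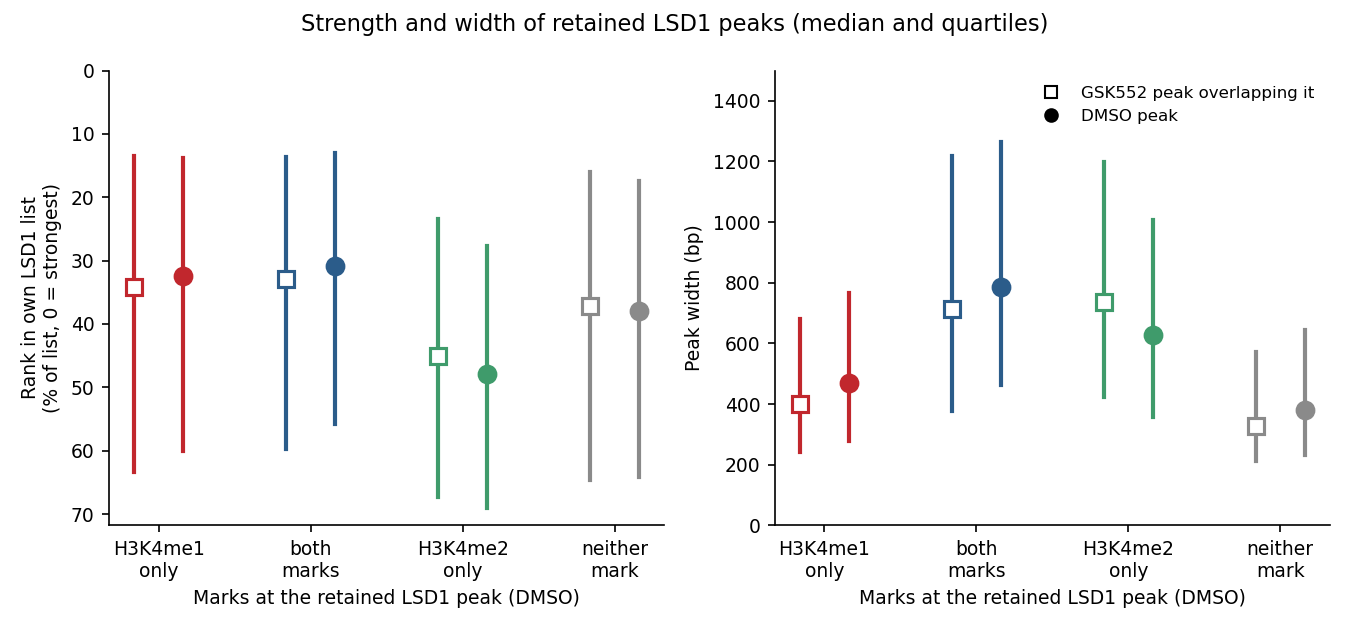
Rank within the own LSD1 list (left, percent of the list, strongest at the top) and peak width in bp (right) for retained LSD1 peaks grouped by their marks with DMSO; squares are the overlapping GSK552 peaks, circles the DMSO peaks, and lines span the middle 50%. H3K4me1-only peaks (red, n = 2583) had median ranks of 34.2% with GSK552 and 32.4% with DMSO, close to peaks with both marks, and median widths of 399 bp with GSK552 and 468 bp with DMSO, below the 713 bp with GSK552 and 787 bp with DMSO of peaks with both marks.

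The rule asks for overlap with a GSK552 peak and with H3K4me1, so a shared place is fixed in part by the choice of peaks, and the values here are a description. A single GSK552 peak overlapped 2562 of the H3K4me1-only peaks and 2 overlapped the remaining 21. The centres differed by a median of 111.5 bp, against 140.5 bp over all retained peaks, and GSK552 covered a median of 70.1% of the DMSO peak, against 72.7%. It was at least 2 times as wide as the DMSO peak at 13.4% of them (background over all retained peaks, 15.4%), and at most 0.5 times as wide at 21.2% (background 18.8%). The GSK552 peak itself touched H3K4me1 in 86.6% of cases (2236 of 2583), against 92.3% for both marks and 48.3% over all retained peaks. It touched H3K4me2 in 11.0% (284), against 5.42% for retained peaks with neither mark and 62.6% over all retained peaks. Of those 284, 279 belonged to the 860 DMSO peaks that had H3K4me2 within 1 kb.

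Single regions show how high such peaks could rank. The peak with the best combined rank, at chromosome 6, 157108444 to 157109628, had a fold of 9.44 and rank 32 with GSK552, and a fold of 9.93 and rank 15 with DMSO. It held all of a 319 bp H3K4me1 interval with a fold of 4.46, and the nearest H3K4me2 was 2666 bp away. At chromosome 22, 36571357 to 36572338, the fold was 12.8 with GSK552 (rank 18) and 10.03 with DMSO (rank 29), and H3K4me2 was 45144 bp away. Both of these peaks enclosed a small H3K4me1 interval of moderate fold, of 319 bp in the first and 402 bp in the second.

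Several of the strongest lay far from H3K4me2. The peak at chromosome 13, 38576743 to 38577756, ranked 4 with GSK552 (fold 12.05) and 66 with DMSO (fold 7.41), and lay 121004 bp from H3K4me2. The peak at chromosome 11, 16809655 to 16810217, ranked 22 with GSK552 and 70 with DMSO, and lay 31539 bp from H3K4me2. The peak at chromosome 18, 33614673 to 33615720, had rank 74 and fold 10.9 with GSK552 and rank 23 and fold 11.4 with DMSO. There H3K4me2 began 7 bp away. Among the 10 peaks with the best combined rank, 5 lay more than 10 kb from H3K4me2 and 1 within 1 kb. Over the whole set, 60.9% lay within 10 kb of H3K4me2 and 33.3% within 1 kb. The 10 peaks had H3K4me1 folds of 2.04 to 5.61, and 3 of the 10 had their centre inside the H3K4me1 interval. In the whole set the centre was inside at 52.7% of peaks, and at 36.3% of those over 1000 bp wide. The median width of the 10 was 1059.5 bp.

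The remaining 5 of the 10 were at chromosome 6, 117313380 to 117314563, chromosome 1, 180339556 to 180340769, chromosome 13, 63804486 to 63805140, chromosome 2, 16075190 to 16076260, and chromosome 17, 41631754 to 41634384. Their ranks were between 47 and 160 with GSK552 and between 16 and 92 with DMSO. The one on chromosome 2 differed from the others. Its fold was only 2.67 with GSK552 and 3.04 with DMSO beside a −log10 q of 18.9 with GSK552 and 19.3 with DMSO, and the background that its DMSO fold and p-value imply was 26.1 times the list median.

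That peak was one of 17 H3K4me1-only peaks with an implied background above 6 times the list median, a limit chosen after the values were seen. Of these, 16 lay on chromosome 2, between 15326017 and 16957189, and 1 on chromosome 6. Their DMSO folds were 1.76 to 3.04. They made up 0.658% of the H3K4me1-only peaks, against 0.449% of retained peaks with both marks and 0.709% of those with neither. The widest H3K4me1-only peak, 4659 bp at chromosome 2, 16899603 to 16904261, was among them.

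A further pair of peaks stood at the top of 1 list each and were picked after their values were seen. The peak at chromosome 14, 59896276 to 59897143, ranked 386 with GSK552 (fold 7.40) and 7 with DMSO (fold 11.8), the best DMSO rank of the set. The peak at chromosome 8, 127865595 to 127866194, was overlapped by the first-ranked peak of the whole GSK552 list, with a fold of 14.5 and a −log10 q of 37.1. With DMSO that place had a fold of 5.45, a −log10 q of 9.20 and rank 731. H3K4me1 covered 89 bp of the DMSO peak, and H3K4me2 lay 24646 bp away.

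Ranks could also differ widely between the libraries. Among peaks in the upper 10% of at least one list, the 5 that ranked most above their DMSO place with GSK552 had folds of 4.74 to 8.51 with GSK552 and 2.98 to 3.21 with DMSO. The first of these was at chromosome 3, 166871381 to 166872734, with rank 580 with GSK552 and 43716 with DMSO, but the peaks shared only 6 bp. The 5 that differed most in the other direction had folds of 3.07 to 3.74 with GSK552 and 5.41 to 6.44 with DMSO. The first was at chromosome 13, 48619395 to 48619732, with rank 45396 with GSK552 and 3155 with DMSO, and a shared stretch of 248 bp. Of the first 5, 3 lay within 1 kb of H3K4me2 and none beyond 10 kb. Of the other 5, none lay within 1 kb and 4 beyond 10 kb. In the whole set 33.3% lay within 1 kb and 60.9% within 10 kb. The upper 10% of the GSK552 list held 18.6% of the peaks within 1 kb of H3K4me2 and 21.6% of those beyond 50 kb. For the DMSO list these shares were 14.3% and 22.8%. Whether distance goes with the rank difference was not tested. Both groups of 5 were chosen for that difference, and with 1 library each the difference has no replicate check.

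The H3K4me1 under these peaks was smaller than at retained peaks with both marks. The H3K4me1 interval had a median fold of 5.26 and a median width of 532 bp with 1 summit, against a fold of 7.59, a width of 1299 bp and 3 summits at peaks with both marks. It covered a median of 54.2% of the H3K4me1-only peak and 75.2% of the peak with both marks. H3K4me1-only peaks that were not found again had H3K4me1 of much the same size, with a fold of 5.43 and a width of 550 bp. A single H3K4me1 interval touched 2179 of the H3K4me1-only peaks, and 404 touched 2 or more. Only 14 of the 3010 intervals touched held 2 of these peaks.

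The LSD1 centre was often at the edge of H3K4me1 or beyond it. It lay inside the H3K4me1 interval at 52.7% of the H3K4me1-only peaks (interval 50.8 to 54.6%), against 65.8% of retained peaks with both marks (64.9 to 66.7%) and 68.9% of H3K4me1-only peaks that were not found again (66.8 to 71.0%). Wide LSD1 peaks had their centre inside less often, so the shares were also taken by width. For LSD1 peaks up to 250 bp wide, the centre was inside at 74.9% of H3K4me1-only peaks, against 84.6% with both marks and 81.6% of those not found again. For peaks over 500 and up to 1000 bp wide, it was 44.3% at H3K4me1-only peaks, against 64.8% with both marks and 58.2% of those not found again. In all 4 width groups the share was lowest at the retained H3K4me1-only peaks, although over 1000 bp the interval of the 72 peaks not found again (33.5 to 55.9%) spans the 36.3% of the retained ones.

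When the centre lay outside, H3K4me1 was mostly on a single side, which follows in part from the intervals touched. H3K4me1 can lie on both sides of such a centre only where the peak touches several H3K4me1 intervals. Of the 1221 H3K4me1-only peaks of this kind, 210 touched several and 189 (15.5%) had H3K4me1 on both sides within the peak. The share was 34.9% for retained peaks with both marks and 14.2% (82 of 579) for H3K4me1-only peaks not found again. Over all centres, several intervals were touched by 30.0% of retained peaks with both marks. It was 15.6% for retained H3K4me1-only peaks and 8.96% for those not found again. Layout apart from the number of intervals was not tested. An H3K4me1 summit stood on each side within 1 kb of the centre at 45.4% of the retained H3K4me1-only peaks, at 67.2% of retained peaks with both marks and at 43.8% of H3K4me1-only peaks that were not found again. Among the peaks with H3K4me1 on one side only, the nearest H3K4me2 was on that same side for 187 of 273 (68.5%) where it lay within 1 kb. The share was 56.7% (161 of 284) at 1 to 10 kb and 49.9% (237 of 475) beyond 10 kb.

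The summit profile adds both sides of the centre together, so it gives distance and not side. Per 100 H3K4me1-only peaks there were 59.1 H3K4me1 summits within 200 bp of the LSD1 centre, 56.9 at 200 to 400 bp and 44.6 at 400 to 600 bp, and the number reached 13.1 at 2800 to 3000 bp. At H3K4me1-only peaks that were not found again it was 68.8 within 200 bp and 52.9 at 200 to 400 bp. At retained peaks with both marks it was 67.1 next to the centre, was highest at 72.9 at 200 to 400 bp and was still 62.1 at 800 to 1000 bp. H3K4me2 summits, which the rule kept off the peaks, numbered 0.619 per 100 H3K4me1-only peaks within 200 bp and 11.3 at 400 to 600 bp, and lay between 6.35 and 8.48 in each step beyond. For retained peaks with neither mark the H3K4me2 number stayed at or under 4.66 in each step. For H3K4me1-only peaks that were not found again it was 8.05 at 400 to 600 bp and between 8.85 and 12.2 in each step beyond.

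**Figure D2:**
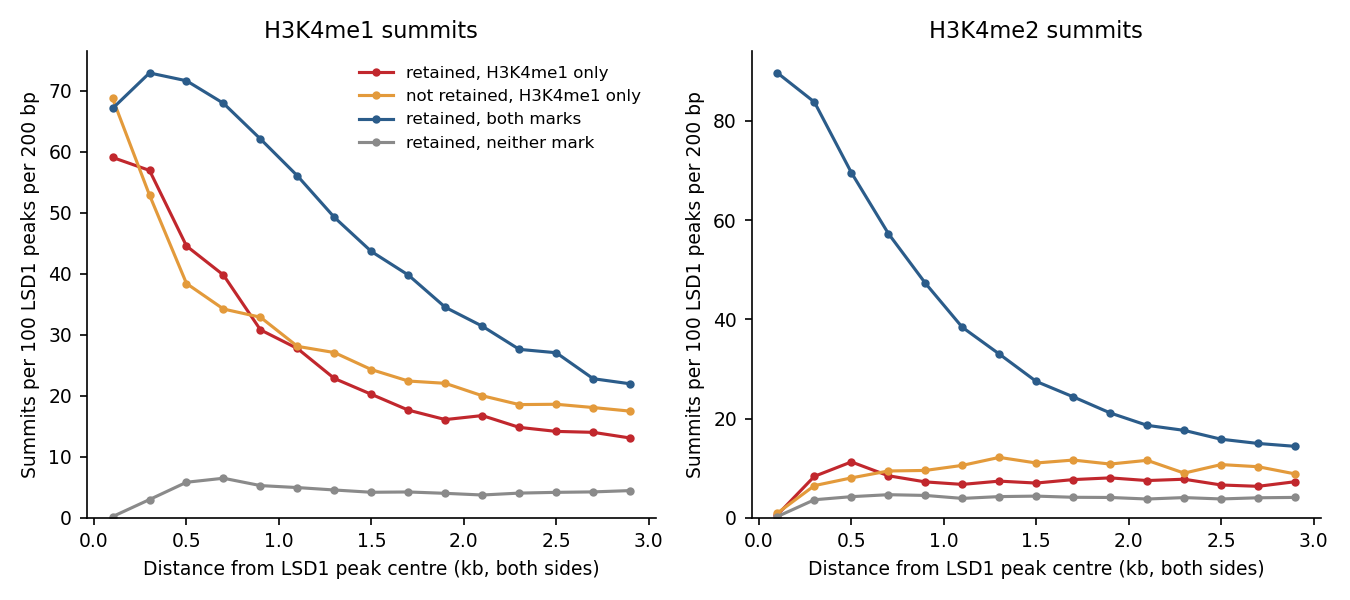
Summits of H3K4me1 (left) and H3K4me2 (right) per 100 LSD1 peaks in steps of 200 bp from the LSD1 peak centre, in kb, both sides added together; colours mark the class of LSD1 peak. At retained H3K4me1-only peaks (red) H3K4me1 summits were most frequent next to the centre (59.1), and H3K4me2 summits had a small maximum of 11.3 at 400 to 600 bp.

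H3K4me1 strength and LSD1 strength showed little relation within the set. The Spearman correlation of H3K4me1 fold with LSD1 −log10 q over the 2583 peaks was −0.0510. When the peaks were ordered by LSD1 −log10 q and divided into 5 equal groups, the median H3K4me1 fold was 5.21 in the strongest group and 5.30 in the weakest. The LSD1 centre was inside H3K4me1 at 43.3% of the strongest group (interval 39.1 to 47.6%) and at 52.1 to 56.5% of the other 4. The strongest group was also the widest, with a median LSD1 width of 554 bp against 415 to 487.5 bp in the others. Strength apart from width was not tested. H3K4me2 lay within 1 kb of 26.3% of the strongest group, and of 34.4 to 36.2% of the others.

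**Figure D3:**
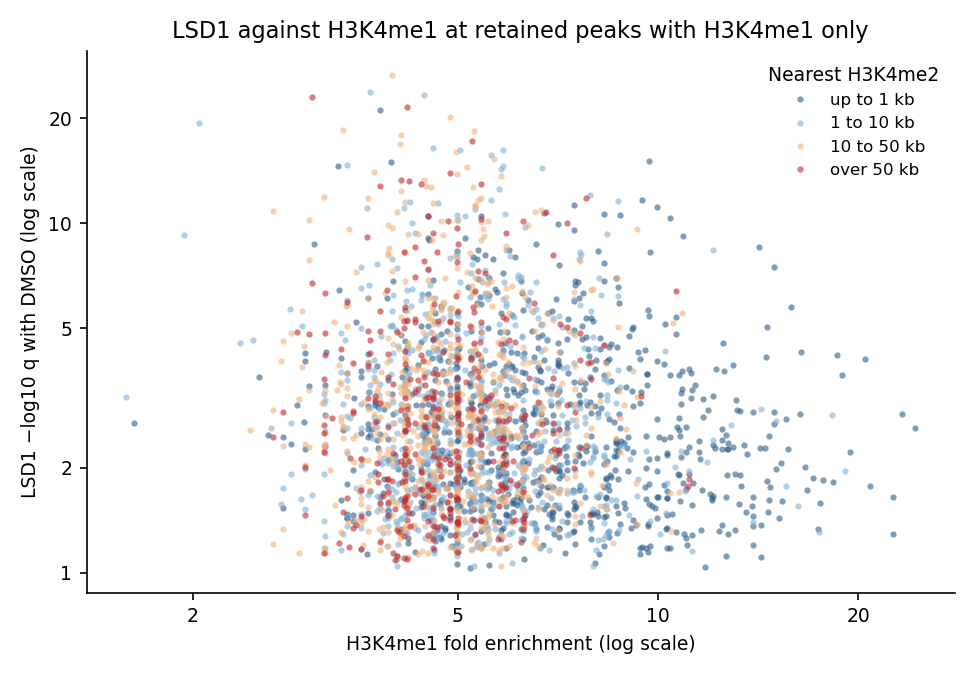
LSD1 −log10 q with DMSO against H3K4me1 fold enrichment (both log scales) for each of the 2583 retained H3K4me1-only peaks, coloured by the distance to the nearest H3K4me2 interval. The cloud shows no clear slope (Spearman −0.0510), and the peaks with the highest H3K4me1 folds are mostly blue, within 10 kb of H3K4me2.

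The opposite extreme, the most H3K4me1 rather than the most LSD1, was made of different peaks. The 6 H3K4me1-only peaks with the highest H3K4me1 folds had values of 20.5 to 24.4 in intervals of 4181 to 9564 bp, and LSD1 folds of 2.86 to 4.67 with GSK552 and 3.06 to 4.16 with DMSO. The highest, at chromosome 3, 196746039 to 196746454, was a 416 bp LSD1 peak inside an H3K4me1 interval of 9564 bp, and H3K4me2 began 212 bp away. All 6 had their centre inside H3K4me1 and H3K4me2 within 24 to 807 bp. The others lay at chromosome 12, 122580692 to 122580865, chromosome 11, 126334609 to 126334801, chromosome 14, 103585944 to 103586885, chromosome 11, 2235963 to 2236569, and chromosome 20, 56026830 to 56027040.

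Absence of H3K4me2 at the peak did not mean absence nearby. The nearest H3K4me2 interval was a median of 5065 bp away, with a middle 50% from 406.5 to 22876.5 bp. This median depends on the strength of the intervals admitted: it was 19802 bp to the 50% of H3K4me2 intervals with the highest scores, 19217 bp with the upper 50% of every list, and 1846 bp with the upper 50% of H3K4me1 intervals. With centres in place of 1 bp overlaps, where the peak may touch H3K4me2, it was 0 bp. It lay within 1 kb for 860 peaks (33.3%) and within 10 kb for 60.9%, and was over 50 kb away for 329 (12.7%). For retained peaks with neither mark the median was 16036 bp, with 12.9% within 1 kb and 23.4% beyond 50 kb. H3K4me1-only peaks that were not found again were nearer to H3K4me2, with a median of 3039.5 bp and 9.39% beyond 50 kb, although the share within 1 kb was 34.4%. At 590 peaks (22.8%) the H3K4me1 interval under the LSD1 peak itself reached H3K4me2 further along.

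Distance to H3K4me2 went with H3K4me1 more than with LSD1. The groups held 860 peaks up to 1 kb, 714 at 1 to 10 kb, 680 at 10 to 50 kb and 329 beyond 50 kb. The median H3K4me1 fold was 6.32, 5.15, 4.99 and 4.67 in that order, and the median H3K4me1 width was 968.5 bp in the nearest group and 351 bp in the farthest. In the nearest group 64.7% of peaks lay on an H3K4me1 interval that itself reached H3K4me2, against 4.76%, 0% and 0% in the others. The 590 peaks of this kind had a median H3K4me1 fold of 7.60 and width of 1532 bp. At the 1993 other peaks these were 4.99 and 437 bp. Whether distance matters apart from these intervals was not tested. Across the set the Spearman correlation of distance was −0.354 with H3K4me1 fold and 0.0614 with LSD1 −log10 q. The median LSD1 rank with DMSO was 36.3%, 35.0%, 28.6% and 29.0%, so the peaks far from H3K4me2 ranked slightly better.

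The GSK552 peaks differed in width and marks between the same groups. Its width relative to the DMSO peak was 1.05, 0.861, 0.811 and 0.825 in the median. The share of GSK552 peaks that touched H3K4me1 was 92.3%, 87.8%, 82.8% and 76.6%. The share that touched H3K4me2 was 32.4%, 0.700%, 0% and 0%, which the grouping fixes in part, since a GSK552 peak reaches H3K4me2 only where H3K4me2 is close. A count of 0 among 329 peaks has an upper Wilson bound of 1.15%. The LSD1 centre was inside H3K4me1 at 60.3%, 52.7%, 48.8% and 41.0%.

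**Figure D4:**
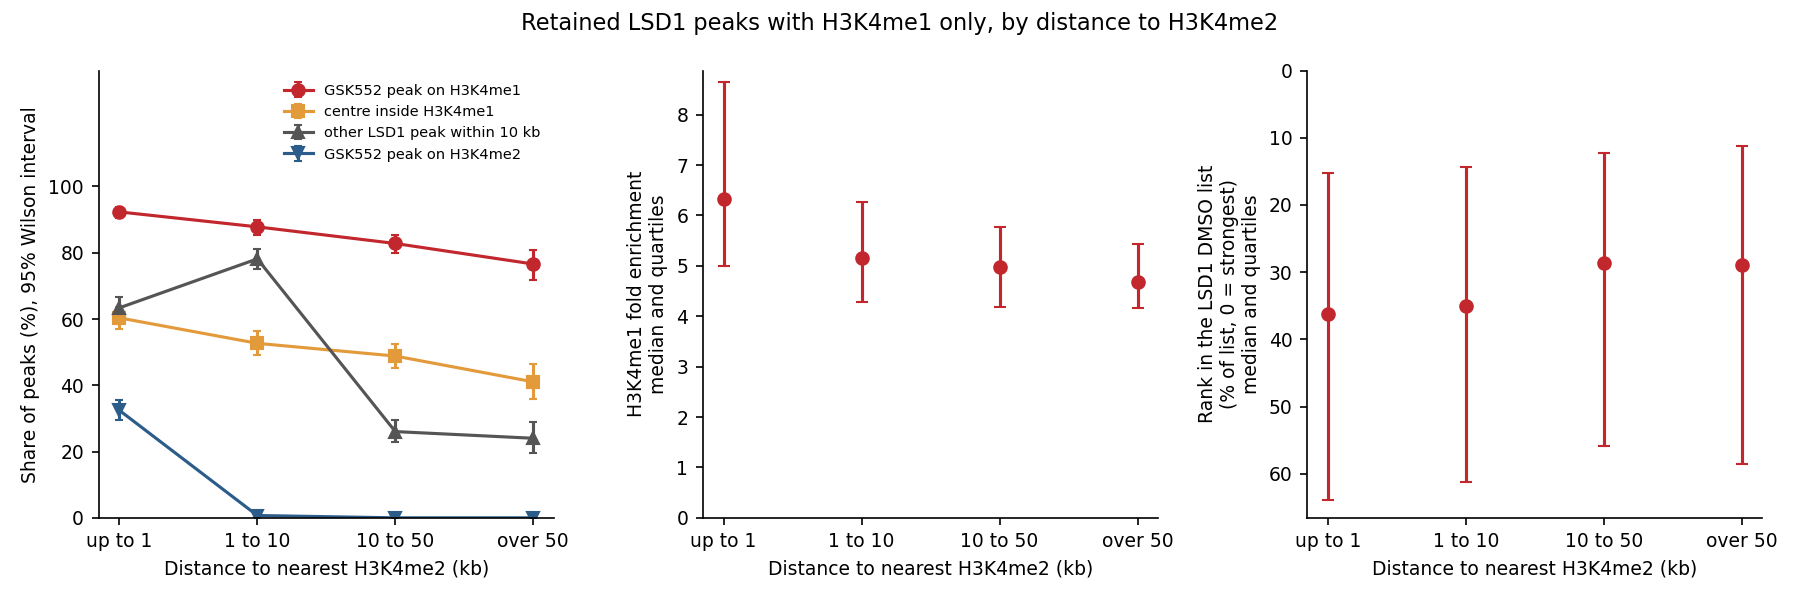
Retained H3K4me1-only peaks grouped by distance to the nearest H3K4me2 interval in kb: shares of peaks in percent with 95% Wilson intervals (left), H3K4me1 fold enrichment (middle) and LSD1 rank with DMSO in percent of the list, strongest at the top (right), the last pair as median and quartiles. H3K4me1 fold had medians of 6.32 within 1 kb and 4.67 beyond 50 kb, while the LSD1 ranks overlapped widely between groups.

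Seen from the H3K4me1 list, few intervals held such a peak. Of the 49768 H3K4me1 intervals without H3K4me2, 2417 (4.86%, interval 4.67 to 5.05%) held a retained H3K4me1-only peak, and 44494 held no LSD1 peak at all. Intervals with such a peak had a median fold of 4.87 and a width of 408 bp, against 4.99 and 399 bp for the 2857 intervals that held only other LSD1 peaks, and 4.60 and 319 bp for intervals without LSD1. The larger size was thus shared by H3K4me1 intervals with other LSD1 peaks. With the intervals in 10 groups by H3K4me1 fold, the share with a peak was 4.18% in the lowest group and 7.49% in the highest, and in 10 groups by width it was 3.23% in the narrowest and 9.66% in the widest. A wider interval has more bases at which to meet a peak.

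The distance of these intervals from H3K4me2 is fixed in part by the rule, which takes no LSD1 peak that touches H3K4me2. The median was 9380 bp for the H3K4me1 intervals that held a retained H3K4me1-only peak, 722 bp for the 2857 that held only other LSD1 peaks and 2165.5 bp for those without LSD1. Of the 44921 H3K4me1 intervals that overlapped H3K4me2, 593 (1.32%) also held such a peak, at a place that H3K4me2 did not reach.

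Other LSD1 peaks were often close, little more so than over all retained peaks. Another DMSO peak lay within 10 kb of 1359 H3K4me1-only peaks (52.6%), against 50.2% of all retained peaks and 49.6% of all DMSO peaks. The share was 60.0% of retained peaks with both marks, 44.5% of those with H3K4me2 only and 40.2% of those with neither. For H3K4me1-only peaks that were not found again it was 59.1%. Among the retained H3K4me1-only peaks it was 63.4% where H3K4me2 was within 1 kb, 78.2% at 1 to 10 kb, 26.0% at 10 to 50 kb and 24.0% beyond. The nearest neighbour of the 1359 lay on H3K4me2 in 50.7% of cases, on H3K4me1 only in 17.8% and on neither mark in 31.5%. It lay on H3K4me2 in 64.2% of cases for retained peaks with both marks, 65.6% for those with H3K4me2 only and 41.1% for those with neither. When peaks with gaps of up to 10 kb were joined, the H3K4me1-only peaks fell into 2409 clusters, and 1224 of them stood alone. There were 2276 clusters with 1 such peak, 110 with 2 and 23 with 3 or more.

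The cluster with the most of them ran over 78.9 kb at chromosome 10, 125219774 to 125298657. It held 22 DMSO peaks, 9 of them retained with H3K4me1 only, and 18 GSK552 peaks. The 43 H3K4me1 intervals there added up to 47.9 kb, and the 30 H3K4me2 intervals to 13.6 kb. LSD1 was of moderate strength there, with folds of 3.48 to 7.20 over the GSK552 peaks and of 3.20 to 4.60 at the 9 DMSO peaks. The strongest of the 9, at 125277756 to 125278786, had a fold of 7.20 with GSK552 and 4.60 with DMSO and lay 539 bp from H3K4me2. The distances of the 9 from H3K4me2 ran from 2 to 11850 bp.

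**Figure D5:**
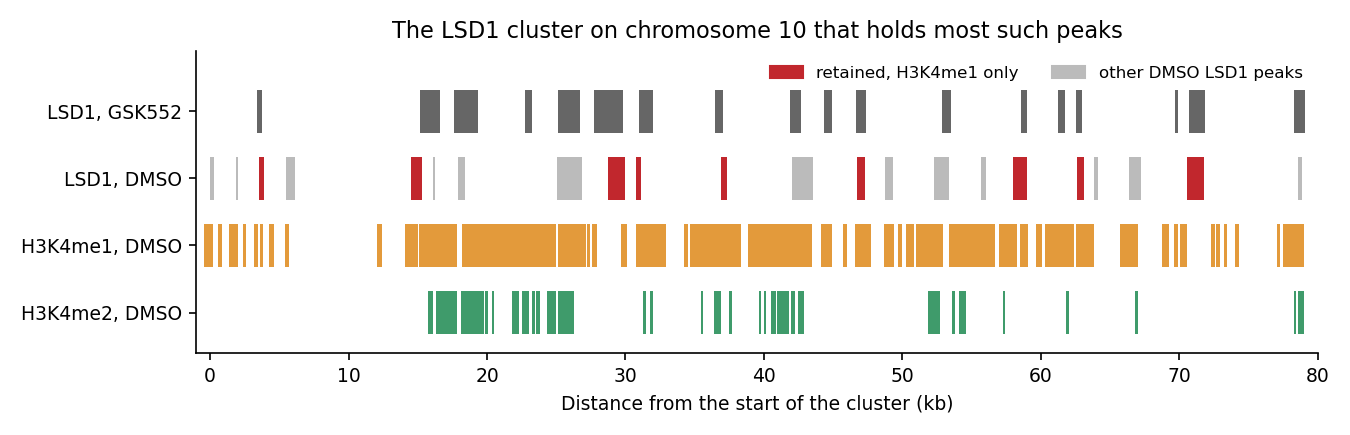
Map of the cluster on chromosome 10 in kb from its start, with rows for LSD1 peaks with GSK552, LSD1 peaks with DMSO, H3K4me1 intervals and H3K4me2 intervals; red marks the 9 retained H3K4me1-only peaks and light grey the other 13 DMSO peaks. By the rule, the red peaks touch H3K4me1 intervals, which added up to 47.9 kb here, and no H3K4me2 interval.

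The next clusters held fewer. At chromosome 20, 55946359 to 56084668, 8 of 45 DMSO peaks were retained with H3K4me1 only, and at chromosome 22, 35901793 to 35952479, 5 of 14 were. Clusters at chromosome 13, 31378394 to 31442606, and chromosome 12, 124990266 to 125016631, held 4 of 17 and 4 of 11. Most peaks in the chromosome 20 cluster, 27 of 45, had both marks.

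Over the chromosomes the H3K4me1-only peaks followed the LSD1 list loosely. Their share of the DMSO peaks of an autosome was lowest on chromosome 19, at 2.35% (45 of 1911, interval 1.76 to 3.14%), and highest on chromosome 13, at 7.46% (131 of 1757, interval 6.32 to 8.78%). On chromosome 19, 72 of the LSD1 peaks had H3K4me1 only, and 62.5% of them were found again with GSK552, against 58.1% over all chromosomes. On chromosome 13, 70.8% of 185 were found again.

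The set can also be seen from the GSK552 list. Of its 49597 peaks, 4706 (9.49%) lay on H3K4me1 and not on H3K4me2, with the marks as mapped in DMSO cells. A DMSO peak overlapped 55.3% of these, and 41.6% (1956) were overlapped by one of the H3K4me1-only peaks described here.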

How the data were processed

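LSD1 was mapped in cells with GSK552 and with DMSO, and H3K4me1 and H3K4me2 with DMSO, in 1 library each. Groups came from the sample descriptions, and the treatment text, which stands with every sample, was read as applying to GSK552. BWA, Picard, MACS2 2.0 and build hg19 are named in the submitters' processing notes; the sources used here do not give depth, control or duplicate handling. The deposited score of a peak is 10 times its −log10 q, within 1. The deposited fold enrichment is a ratio over the caller's background, and the −log10 p and −log10 q values are those that the authors deposited for each peak. They served to describe or rank the peaks of 1 list; fold and −log10 p together gave the implied background. The LSD1 lists are broad-peak lists reaching a −log10 q of 1.01 with GSK552 and 1.00 with DMSO, and the histone lists narrow-peak lists starting near 2.01, which affects widths and overlaps. The 175135 H3K4me1 rows gave 94689 distinct intervals and the 178083 H3K4me2 rows 81619.

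Overlap meant at least 1 bp, and adjoining intervals lie 1 bp apart. Overlaps, gaps and implied background were tested on simulated data. The peaks and lists were chosen with earlier results of these data known. Regions were named by rank, H3K4me1 fold, width, rank difference, cluster content and closeness to a limit of the rule. Scripts used Python 3.11.15, numpy 2.4.6, pandas 2.3.3 and scipy 1.17.1. Histone marks with GSK552, genes and sequence at the peaks were not analysed here.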

Additional observations from a re-analysis of the deposited data

How the results depend on the processing

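Each of 11 results was recomputed under the alternatives that apply to it, 13 in all, which gave 83 values, and 33 of these stayed within the interval of the main value or, for the number of peaks, within 1.5 times. All 11 stayed so on chromosomes 1 to 22 only, and without the peaks of raised implied background, an alternative chosen after seeing the data. No paired analysis was possible because there is only 1 library per group. Depth, control and replicate error are unknown, so no library-to-library difference can be set against its spread. The cause of the changes below was not tested beyond what each alternative leaves out.

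The main values were 2583 peaks, 5.72% of DMSO peaks, a retained share of 58.1%, a width of 468 bp, a width ratio of 0.892, an H3K4me1 fold of 5.26, the centre inside H3K4me1 at 52.7%, a summit on each side at 45.4%, a distance to H3K4me2 of 5065 bp, H3K4me2 at the GSK552 peak in 11.0% and a neighbour in 52.6%. With LSD1 peaks of −log10 q 2 or more these became 1519 peaks, 7.00%, a retained share of 70.4%, 495 bp, a centre inside at 49.4%, 6087 bp, 9.81% and a neighbour in 32.98%.

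When peak centres had to lie inside the other interval, the peak itself could touch H3K4me2. The set was then 4.87% of DMSO peaks, with a retained share of 45.7%, 440 bp, a ratio of 1.05, a fold of 6.64, summits on each side at 67.5%, a distance of 0 bp, H3K4me2 at the GSK552 peak in 55.9% and a neighbour in 59.3%. A reciprocal overlap of 50% left 848 peaks, 1.88% and a retained share of 33.2%.

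With no H3K4me2 within 1 kb, the set was 3.81% of DMSO peaks, with 501 bp, a ratio of 0.835, a fold of 4.99, a centre inside at 48.9%, summits on each side at 38.4%, H3K4me2 at the GSK552 peak in 0.290% and a neighbour in 47.2%.

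With the 50% of H3K4me1 intervals of highest score there were 1507 peaks, 3.33%, a ratio of 0.922, a fold of 6.26, a centre inside at 56.3%, summits on each side at 36.7%, 1846 bp, 15.3% and a neighbour in 57.3%. With the upper 50% of every list the set was 8.87%, with a retained share of 62.5%, 629 bp, a ratio of 0.856, a fold of 6.77, a centre inside at 58.4%, 19217 bp, 5.19% and a neighbour in 35.9%.

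With the GSK552 list cut to the length of the DMSO list, the retained share was 55.3%. Distance to the stronger 50% of H3K4me2 intervals was 19802 bp. Summits within 500 bp on each side were found at 23.8%, and a neighbour within 5 kb at 38.4%.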
